A study of Mus musculus with 8 samples.

Results

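The colony-stimulating factors and their receptors were followed in RNA-sequencing of cADSC, the adherent stromal cells grown from the stromal vascular fraction of mouse cardiac adipose tissue. The set was chosen by name as 9 genes, 4 ligands (Csf1, Il34, Csf2 and Csf3) and 5 receptor genes (Csf1r, Csf2ra, Csf2rb, Csf2rb2 and Csf3r), out of 52636 genes in the tables. All 9 were found, and 7 passed the minimum for testing, above 0.5 CPM (counts per 1000000 counts) in at least 2 of the 8 libraries, as did 17529 genes in all. Csf2 and Csf3 did not pass.

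Cells came from WT mice and from mice labelled P2Y2 KO, which lack a functional gene for the P2Y2 receptor of UTP in every tissue, and were cultured for 7 days without stimulation or with UTP (100 µM) added every day. Each of the 4 groups (WT, WT + UTP, P2Y2 KO, P2Y2 KO + UTP) held 2 libraries. The RNA of 2 cultures was combined for every library, and n = 2 below is the number of such pools. The labels give the strain as C57BL/6J for all groups, while the study's methods describe the knockout line as CD1/C57BL/6J and state that male and female adult mice were used at random. No group was an isolated cell type, since the cells were selected only by their adhesion to plastic. The study checked surface markers of mesenchymal cells by flow cytometry, and those data are not used here.

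CSF1 (M-CSF) and IL-34 are the ligands of CSF1R, the receptor tyrosine kinase on which macrophages depend for survival and proliferation. GM-CSF, encoded by Csf2, binds a receptor made of the specific alpha chain Csf2ra and the shared beta chain Csf2rb, which the mouse carries beside a close copy, Csf2rb2, the beta chain of the IL-3 receptor. G-CSF, encoded by Csf3, acts through Csf3r on cells of the neutrophil line. In stromal tissues, mesenchymal cells are the usual source of CSF1, and the receptors are carried by myeloid cells.

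Promoters of receptor genes are shown first, since these genes differed between groups while Csf1 was nearly level. RefSeq promoters (build GRCm38.p6, from 250 bases before to 50 bases after the annotated start) were matched for 5 of the 9 genes, and those of 3 receptor genes follow, with the core of the site of PU.1, the main transcription factor of the myeloid line, in capitals (GAGGAA, or TTCCTC where it lies on the other strand).
Csf2ra, chr19:61228369-61228668, minus strand: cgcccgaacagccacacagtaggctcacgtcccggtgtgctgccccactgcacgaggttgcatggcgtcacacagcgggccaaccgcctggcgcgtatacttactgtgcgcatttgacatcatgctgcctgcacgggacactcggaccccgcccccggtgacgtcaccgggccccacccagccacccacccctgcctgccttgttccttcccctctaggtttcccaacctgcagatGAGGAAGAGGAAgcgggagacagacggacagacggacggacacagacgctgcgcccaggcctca
Csf2rb2, chr15:78305672-78305971, minus strand: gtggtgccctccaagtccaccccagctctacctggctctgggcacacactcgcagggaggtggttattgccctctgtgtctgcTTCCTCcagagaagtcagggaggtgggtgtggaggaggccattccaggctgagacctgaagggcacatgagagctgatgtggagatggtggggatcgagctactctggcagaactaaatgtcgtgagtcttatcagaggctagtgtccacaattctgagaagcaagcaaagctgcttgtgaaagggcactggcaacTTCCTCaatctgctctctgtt
Csf3r, chr4:126024409-126024708, plus strand: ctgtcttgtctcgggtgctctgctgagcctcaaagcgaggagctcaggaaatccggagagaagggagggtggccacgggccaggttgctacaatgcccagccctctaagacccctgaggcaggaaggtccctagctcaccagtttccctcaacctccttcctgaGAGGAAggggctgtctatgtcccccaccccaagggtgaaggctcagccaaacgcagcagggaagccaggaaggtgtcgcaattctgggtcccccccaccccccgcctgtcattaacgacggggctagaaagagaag
The core lies 14 and 8 bases before the start of Csf2ra, side by side without overlap, 167 bases before and 29 bases after the start of Csf2rb2, and 86 bases before that of Csf3r. Of 32851 promoters of this length, 28.3% hold it on either strand, so that a match in a single promoter is common. The windows of Csf1 and Csf2 do not hold these letters. An AP-1 site (TGACTCA, 5.2% of promoters) and a TATA box (TATAAA, 13.6%), searched on both strands, were in none of the 5 windows. Matches and their absence describe letters only.

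The sequences of Csf2rb and Csf2rb2 are shown because the genes are neighbours on chromosome 15 and near copies of each other, which bears on how their reads were assigned. The first 120 coding bases of each follow, with the 4 differing bases in capitals.
Csf2rb: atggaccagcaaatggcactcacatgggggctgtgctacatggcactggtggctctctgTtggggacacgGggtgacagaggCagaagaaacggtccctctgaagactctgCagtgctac
Csf2rb2: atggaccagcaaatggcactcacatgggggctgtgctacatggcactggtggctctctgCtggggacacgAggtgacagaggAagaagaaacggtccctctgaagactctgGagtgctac
Over 2631 aligned coding bases the identity was 95.2%. Of all windows of 100 bases, the length of 1 read, 6.96% of the Csf2rb transcript and 7.2% of the Csf2rb2 transcript were shared exactly with the other gene. A read from those stretches could not be assigned by its own sequence, though its mate in these paired-end libraries may lie outside them. The share of uncertain counts was not computed.

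The deposited values were counts scaled to a common total of 20008555 to 20015454 per library (18599888 to 22017861 before scaling, as estimated from the values). A scaled count of 10 was 0.5 CPM, and a count of 0 allowed a level of up to 0.15 CPM, a bound that covers counting error only. P2ry2, the gene named in the labels, had 13.7 to 15.5 CPM in the libraries labelled P2Y2 KO against 16.4 to 18.1 CPM in WT, a difference that did not pass the test (log2 difference of -0.26 without UTP, adjusted p = 0.0925 in edgeR), and which part of the gene is deleted was not examined, so these reads gave no check of the labels. WT pool 1 without UTP stood apart: it had no reads of the Y-linked gene Ddx3y, with Xist at 452 CPM, and 12 epithelial genes summed to 36.7 CPM in it, to 175 to 218 CPM in the other WT pools and to 44.2 to 51.1 CPM in the P2Y2 KO pools. In both pools 1 labelled P2Y2 KO, Xist was at or below 0.15 CPM. The mix of male and female cells therefore differed between groups, and its part in the results was not tested. Of the marker lists, 11 stromal genes summed to 22300 to 28200 CPM in every library, and 20 macrophage genes to 1810 to 5170 CPM, so that the cultures held the transcripts of myeloid cells beside those of stromal cells. Of 12 neutrophil genes, whose sum was 4.1 to 9.04 CPM, Ly6g and Mpo were at or below 0.475 CPM in the group means. From the same list, Mmp8 was at 2.45 to 5.22 CPM and Prtn3 at 0.1 to 1.07 CPM. Mmp8 was higher in P2Y2 KO without UTP (log2 difference 0.89, adjusted p = 0.00751 in edgeR) and with UTP (0.62, 0.0197). Prtn3 was higher in P2Y2 KO with UTP (3.35, 0.00966).

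The 9 genes differed widely in level. Per kilobase of merged exons, the group means were 462 to 524 CPM for Csf1, 27.3 to 93.9 CPM for Csf1r, 8.18 to 14.0 CPM for Il34, 5.85 to 11.6 CPM for Csf2ra, 3.84 to 6.39 CPM for Csf2rb2, 3.45 to 5.78 CPM for Csf2rb and 0.284 to 0.9 CPM for Csf3r. Csf1 and Csf1r stood clear of all others in every library, while Il34 and Csf2ra overlapped. Csf2rb and Csf2rb2 changed places with the length used: in WT without UTP, Csf2rb was at 4.0 ± 0.733 CPM per kb and Csf2rb2 at 5.4 ± 0.954 (SD, n = 2), but with the longest transcript in place of merged exons Csf2rb was at 5.94.

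**Figure D1:**
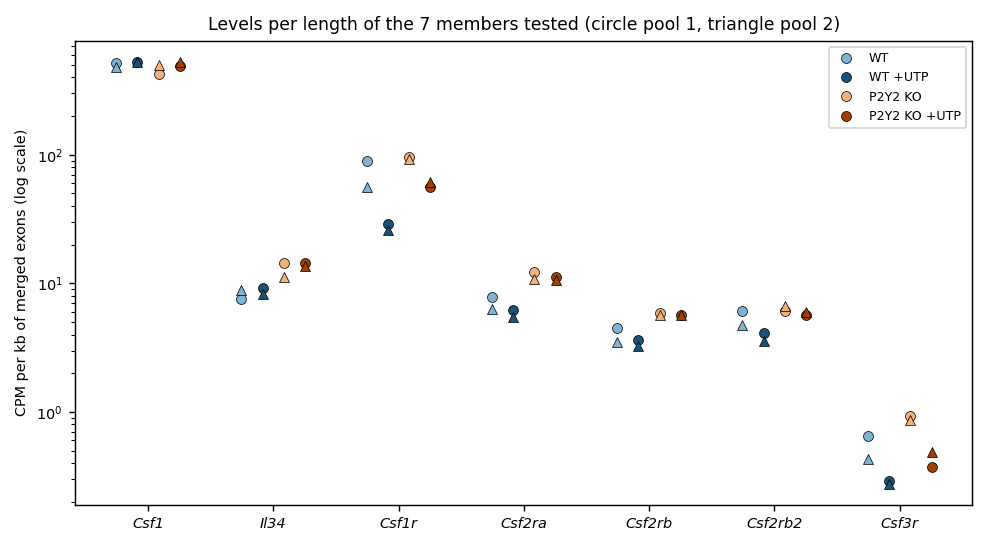
Level per length (CPM per kb of merged exons, log scale) of the 7 tested genes in each of the 8 libraries, coloured by group (circles pool 1, triangles pool 2). Csf1 sits above all other genes in every library, Csf1r follows, and Csf3r is lowest, at 0.284 to 0.9 in the group means.

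Csf1, the main ligand of CSF1R, was among the most abundant transcripts of these cells and did not pass the test in any comparison. It held 55070 and 50539 scaled counts in WT, 55372 and 55301 in WT + UTP, 45098 and 52526 in P2Y2 KO, and 51587 and 55775 in P2Y2 KO + UTP. Both WT + UTP pools lay just above both WT pools and both P2Y2 KO pools, and the other groups overlapped. With 2 pools against 2, groups without overlap were common. With UTP in WT, 26.2% of all tested genes lay wholly higher and 25.8% wholly lower. The gene (ENSMUSG00000014599, chromosome 3, 107741048 to 107760469, minus strand, GRCm38) ranked 13 to 20 among all genes by CPM, at 0.225 to 0.279% of the counts of a library. Its level was 2640 ± 160 CPM in WT and 2770 ± 2.37 CPM in WT + UTP (SD, n = 2). The log2 change with UTP was 0.07 in WT (95% interval -0.15 to 0.28, adjusted p = 0.747) and 0.14 in P2Y2 KO (-0.07 to 0.36, adjusted p = 0.831), by the quasi-likelihood F test of edgeR with Benjamini-Hochberg adjustment over all tested genes, which gives every adjusted p below. The intervals reach no further than a fold of 1.22 in WT and 1.28 in P2Y2 KO. Between genotypes the log2 difference was -0.12 without UTP (-0.33 to 0.1, adjusted p = 0.407) and -0.04 with UTP (-0.25 to 0.18, adjusted p = 0.814).

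Il34, which encodes the other ligand of CSF1R, was higher in the libraries labelled P2Y2 KO than in WT, with and without UTP. WT held 294 and 347 scaled counts, WT + UTP 358 and 324, P2Y2 KO 568 and 442, and P2Y2 KO + UTP 565 and 534. All 4 P2Y2 KO pools lay above all 4 WT pools. Of all tested genes, 31.8% lay wholly higher in P2Y2 KO without UTP and 31.7% with UTP. The share for both states together was not computed. The level was 16.0 ± 1.87 CPM in WT and 25.2 ± 4.45 CPM in P2Y2 KO (SD, n = 2), a log2 difference of 0.65 (SE 0.13, adjusted p = 0.0124), and 17 ± 1.2 against 27.5 ± 1.1 CPM with UTP, a log2 difference of 0.69 (adjusted p = 0.00948). UTP itself gave 0.09 in WT (-0.21 to 0.39, adjusted p = 0.762) and 0.13 in P2Y2 KO (-0.16 to 0.42, adjusted p = 0.918). The call without UTP was lost when P2Y2 KO pool 1 was left out (0.48, adjusted p = 0.0735) or only the untreated libraries were fitted (0.65, 0.0515), and that with UTP when WT + UTP pool 1 (0.0574), WT + UTP pool 2 (0.0897) or P2Y2 KO + UTP pool 1 (0.0545) was left out. In such fits the lone pool is assumed to vary like the other groups. Il34 (chromosome 8, 110741829 to 110805924, minus strand) overlaps the genes Gm15894 and Gm15895 on the other strand, which were at 0.6 to 1.3 CPM in WT and 1.65 to 2.3 CPM in P2Y2 KO. The strand setting of the counting is not given in the sources used here, so that reads of Il34 and of these genes may not be told apart.

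As a share of Csf1 and Il34 together, per length, Il34 made up 1.42 to 1.82% in the 4 WT libraries and 2.22 to 3.28% in the 4 P2Y2 KO libraries. Csf1 thus exceeded Il34 by 54.0 to 69.5 times in WT and by 29.5 to 44.1 times in P2Y2 KO. These ratios were not tested on their own.

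Csf2 and Csf3, the genes of GM-CSF and G-CSF, were at the limit of detection everywhere. Csf2 had 0 and 3 scaled counts in WT, 4 and 2 in WT + UTP, 2 and 1 in P2Y2 KO, and 0 and 0 in P2Y2 KO + UTP. Csf3 had 2 and 2 in WT, 3 and 3 in WT + UTP, 2 and 4 in P2Y2 KO, and 5 and 2 in P2Y2 KO + UTP. No library reached the 10 scaled counts of the minimum, and neither gene was tested. For Csf2 the summed counts with UTP against without were 6 against 3 in WT, a ratio of 2.0 with an exact counting interval of 0.427 to 12.4. In P2Y2 KO they were 0 against 3, and no fold is given. For Csf3 they were 6 against 4 in WT (1.5, interval 0.356 to 7.23) and 7 against 6 in P2Y2 KO (1.17, interval 0.336 to 4.2). A difference between groups was not detectable at this depth for either ligand, while their receptor genes were measured at up to 42.1 CPM in the group means.

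**Figure D2:**
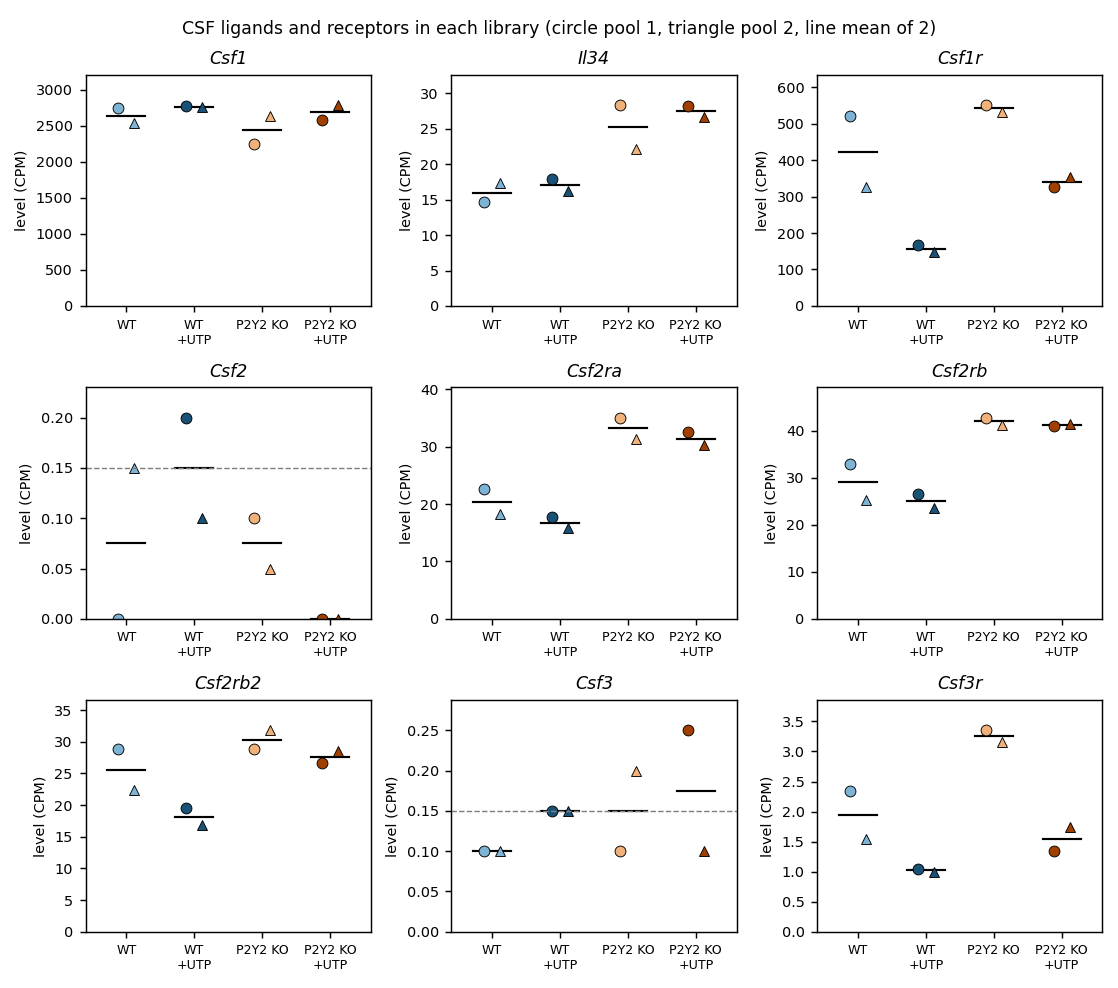
Level (CPM) of the 9 genes in each library, with the mean of the 2 pools of a group as a line (circles pool 1, triangles pool 2; each axis starts at 0). Csf1 is level across groups, Il34, Csf2ra and Csf2rb are higher in P2Y2 KO, and Csf1r and Csf3r are lower with UTP; the dashed lines for Csf2 and Csf3 mark 0.15 CPM, the level that a count of 0 allows.

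Csf1r, the receptor of both CSF1 and IL-34, was the only gene of the set called lower with UTP in WT cells. The other receptor genes were lower there too, without passing the test. The libraries held 10411 and 6504 scaled counts in WT, 3322 and 2975 in WT + UTP, 11045 and 10666 in P2Y2 KO, and 6538 and 7095 in P2Y2 KO + UTP. In each genotype both UTP pools lay below both untreated pools, and WT pool 2 was at the level of the P2Y2 KO + UTP pools. Of all tested genes, 25.8% lay wholly lower with UTP in WT and 21.1% in P2Y2 KO. The level was 423 ± 138 CPM in WT and 157 ± 12.3 CPM in WT + UTP (SD, n = 2), a log2 change of -1.43 (SE 0.19, 95% interval -1.86 to -0.99, adjusted p = 0.0267), or 0.372 of the untreated level. It was the only 1 of the 7 tested members called in this comparison, in which 1.22% of all tested genes were called and 1.08% were called lower. As RNA of whole cultures was measured, fewer cells that carry a transcript and less of it per cell cannot be told apart, here and in the results below. In P2Y2 KO the levels were 542 ± 13.3 and 341 ± 19.6 CPM, a log2 change of -0.66 (-1.09 to -0.24) with an unadjusted p of 0.00668 in edgeR that did not pass adjustment (adjusted p = 0.448).

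The fall of Csf1r in WT kept its sign in all 15 alternatives and was called in 11 of them. It was not called without WT + UTP pool 1 (-1.5, adjusted p = 0.222), without WT + UTP pool 2 (-1.35, 0.311), without P2Y2 KO pool 1 (-1.43, 0.0511) or with only the 4 WT libraries in the fit (-1.43, 0.135). Without WT pool 1, the library that stood apart, it was called at -1.03 (adjusted p = 0.00312). In P2Y2 KO the change was called in 3 of 15 alternatives, at -0.67 without WT pool 1 (adjusted p = 0.0145) or WT pool 2 (0.0134), neither of which is in that comparison, and at -0.66 with no minimum (0.003).

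Averaged over both genotypes, UTP lowered Csf1r by a log2 value of -1.05 (SE 0.13, adjusted p = 0.0119) and Csf3r by -0.99 (SE 0.19, adjusted p = 0.0363), where 2.55% of all tested genes were called and 2.12% were called lower. The average fit lost Csf1r without WT + UTP pool 1 (0.0615), WT + UTP pool 2 (0.104), P2Y2 KO pool 1 (0.0652) or P2Y2 KO + UTP pool 1 (0.0586). The difference between the UTP effects, P2Y2 KO minus WT, was 0.76 for Csf1r (0.16 to 1.36) with an unadjusted p of 0.0187 in edgeR and an adjusted p of 0.837. It was not called, nor was any other of the 17529 genes (0.0% called by edgeR, 922 with p under 0.05 before adjustment, and 6 calls in DESeq2). Without WT pool 2 it was 1.07 and called (adjusted p = 0.0133), while in the other 13 alternatives it was not.

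Between genotypes, Csf1r was higher in P2Y2 KO than in WT with UTP, by a log2 value of 1.12 (SE 0.19, adjusted p = 0.00678), a fold of 2.17. Without UTP the difference was 0.36 (-0.07 to 0.78, adjusted p = 0.199), and without WT pool 1 it was 0.75 and called (0.00304). The call with UTP was lost without WT + UTP pool 1 (1.19, 0.0513) or WT + UTP pool 2 (1.05, 0.0729). Csf1r (ENSMUSG00000024621, chromosome 18, 61100598 to 61132149, plus strand) overlaps Hmgxb3 on the other strand, which was at 49.9 to 60.0 CPM and had a log2 change of 0.05 with UTP in WT (adjusted p = 0.732).

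Set against its ligands per length, Csf1 exceeded Csf1r by 5.78 and 8.5 times in WT, 18.2 and 20.3 times in WT + UTP, 4.46 and 5.38 times in P2Y2 KO, and 8.63 and 8.6 times in P2Y2 KO + UTP. In each genotype the ratio of ligand to receptor transcript was thus higher in both UTP pools than in both untreated pools, with Csf1 itself nearly level, while WT pool 2 without UTP (8.5) was close to P2Y2 KO + UTP.

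**Figure D3:**
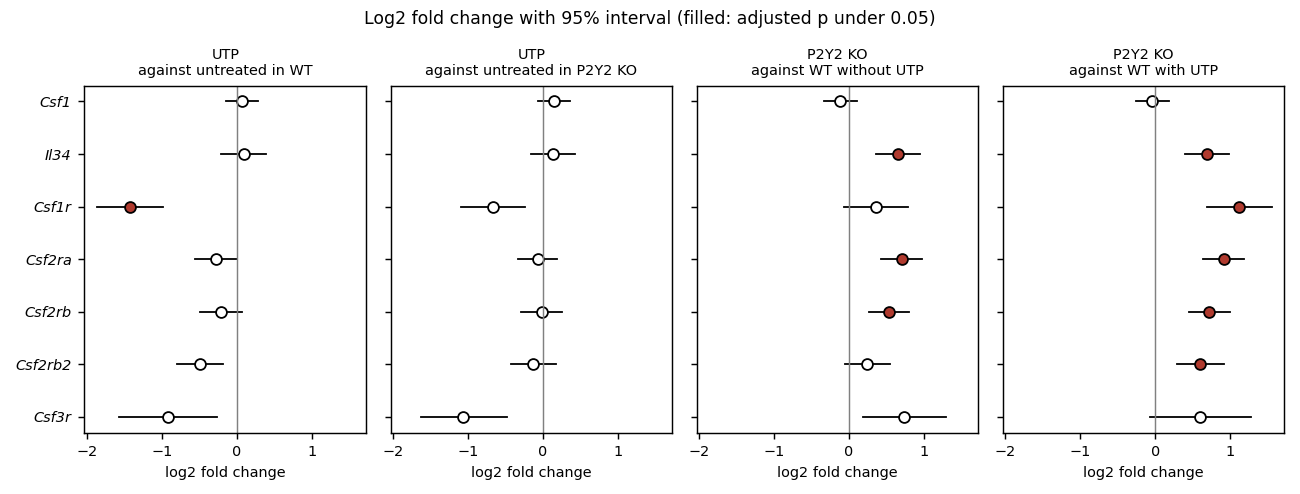
Log2 fold change (point) with its 95% interval (line) for the 7 tested genes in 4 comparisons; filled points have an adjusted p under 0.05 in edgeR. With UTP in WT only Csf1r is filled, at -1.43, and in P2Y2 KO no point is; against WT, P2Y2 KO has 3 filled points without UTP and 5 with UTP, all above 0.

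Csf2ra, the alpha chain that gives the GM-CSF receptor its specificity, was higher in P2Y2 KO in both states. WT held 452 and 364 scaled counts, WT + UTP 355 and 317, P2Y2 KO 702 and 628, and P2Y2 KO + UTP 650 and 607. All 4 P2Y2 KO pools lay above all 4 WT pools, against 31.8% of all tested genes without UTP and 31.7% with UTP taken singly. The level was 20.4 ± 3.11 CPM in WT and 33.2 ± 2.61 CPM in P2Y2 KO (SD, n = 2), a log2 difference of 0.70 (SE 0.12, adjusted p = 0.00755), and with UTP 16.8 ± 1.34 against 31.4 ± 1.53 CPM, a log2 difference of 0.91 (SE 0.12, adjusted p = 0.00334). The latter was called in all 15 alternatives and the former in 14, the exception being the fit without P2Y2 KO pool 1 (0.63, adjusted p = 0.0588). With UTP the log2 change was -0.28 in WT (adjusted p = 0.278) and -0.07 in P2Y2 KO (-0.33 to 0.19, adjusted p = 0.961). Without WT pool 2 the change in WT was -0.44 and called (0.0301).

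Csf2rb, the shared beta chain that carries the signal of GM-CSF, IL-3 and IL-5, had a similar order of groups. It held 658 and 507 scaled counts in WT, 532 and 472 in WT + UTP, 857 and 827 in P2Y2 KO, and 822 and 831 in P2Y2 KO + UTP. Again all P2Y2 KO pools lay above all WT pools, with the shares over all tested genes as for Csf2ra, and the WT groups overlapped. The log2 difference between P2Y2 KO and WT was 0.53 without UTP (SE 0.12, adjusted p = 0.0195) and 0.72 with UTP (SE 0.12, adjusted p = 0.00657). The former was lost without P2Y2 KO pool 1 (0.52, adjusted p = 0.104), without P2Y2 KO pool 2 (0.54, 0.0623) or with only the untreated libraries in the fit (0.52, 0.0662), and the latter without WT + UTP pool 2 (0.64, 0.0701). UTP gave -0.21 in WT (-0.49 to 0.07, adjusted p = 0.395), which was -0.41 and called without WT pool 2 (0.0211), and -0.02 in P2Y2 KO (-0.29 to 0.25, adjusted p = 0.993).

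Csf2rb2, the beta chain specific to IL-3 in the mouse, held 576 and 448 scaled counts in WT, 391 and 338 in WT + UTP, 576 and 636 in P2Y2 KO, and 534 and 570 in P2Y2 KO + UTP. Both WT + UTP pools lay below the 6 other libraries. Over all tested genes, 25.8% lay wholly lower with UTP in WT, and 31.7% lay wholly higher in P2Y2 KO with UTP. The share that lay below all 6 together was not computed. It was higher in P2Y2 KO with UTP, at 27.6 ± 1.27 against 18.2 ± 1.87 CPM (SD, n = 2), a log2 difference of 0.60 (SE 0.14, adjusted p = 0.02), a call that was lost when any 1 of the 4 UTP pools was left out (0.51 to 0.71, adjusted p = 0.0662 to 0.151). Without UTP the difference was 0.24 (-0.06 to 0.54, adjusted p = 0.224), and without WT pool 1 it was 0.45 and called (0.0386). The change with UTP in WT was -0.49 (SE 0.14, -0.8 to -0.18), with an unadjusted p of 0.00664 in edgeR and an adjusted p of 0.134, and was called with no minimum (-0.51, 0.0127) or without WT pool 2 (-0.68, 0.00993). In P2Y2 KO it was -0.13 (-0.43 to 0.17, adjusted p = 0.923). Csf2rb over Csf2rb2, in CPM, was 1.14 and 1.13 in WT, 1.36 and 1.4 in WT + UTP, and 1.3 to 1.54 in P2Y2 KO.

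Csf3r, the G-CSF receptor, was the least abundant gene tested. It had 47 and 31 scaled counts in WT, 21 and 20 in WT + UTP, 67 and 63 in P2Y2 KO, and 27 and 35 in P2Y2 KO + UTP. In each genotype both UTP pools lay below both untreated pools, as for Csf1r and as in 25.8% (WT) and 21.1% (P2Y2 KO) of all tested genes. The level was 1.95 ± 0.565 CPM in WT, 1.02 ± 0.0353 in WT + UTP, 3.25 ± 0.141 in P2Y2 KO and 1.55 ± 0.282 in P2Y2 KO + UTP (SD, n = 2). The log2 change with UTP was -0.92 in WT (SE 0.28, adjusted p = 0.163) and -1.06 in P2Y2 KO (SE 0.25, adjusted p = 0.41), neither of which passed the test alone, and their average did, as given above. The averaged call held in 5 of 14 alternatives, and was lost with DESeq2 (adjusted p = 0.0577), with the replicate block (0.0502) and without any 1 library other than WT pool 2 (0.0614 to 0.181). The difference between the UTP effects was -0.13 (-1.02 to 0.75, adjusted p = 0.953). Against WT, P2Y2 KO was at 0.73 without UTP (adjusted p = 0.0654) and at 0.60 with UTP (adjusted p = 0.197). The former was called without WT pool 1 (1.08, adjusted p = 0.0322) and with no minimum (0.71, 0.0452).

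Over the 7 tested genes, P2Y2 KO against WT called 3 without UTP (Il34, Csf2ra and Csf2rb), all higher, where 20.7% of all tested genes were called and 10.5% were called higher. With UTP it called 5 (these and Csf1r and Csf2rb2), all higher, where 17.4% were called and 9.52% were called higher. Differences between genotypes were thus frequent over all genes. The 12 epithelial genes differed too, with 1 called higher and 5 lower in P2Y2 KO without UTP (median log2 difference -2.64) and 11 lower with UTP (-3.64), and the part of this other cell type in the differences of Il34 and the receptor genes was not tested. With UTP in P2Y2 KO no member was called by edgeR, where 0.0342% of all tested genes were called, and 2 members, Csf1r and Csf3r, had an unadjusted p under 0.05, as did 7.56% of all tested genes. DESeq2 called none of the members there. The genotype comparisons and the UTP comparisons share libraries, so their values are given side by side and were not compared with each other.

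Like Csf1r, the summed macrophage list was lower in both UTP pools than in both untreated pools of each genotype. Its 20 genes summed to 3810 and 2830 CPM in WT, 1910 and 1810 in WT + UTP, 5170 and 4430 in P2Y2 KO, and 3700 and 3840 in P2Y2 KO + UTP. With UTP in WT, 13 of 20 were called lower (median log2 change -1.34, against 0.01 over all tested genes), among them Cd163, Fcgr1, Mrc1 and Aif1, and in P2Y2 KO none was called by edgeR (median -0.59), with 12 under 0.05 before adjustment and 7 called in DESeq2. Against WT, 5 of 20 were higher in P2Y2 KO without UTP and 18 of 20 with UTP, where 10.5% and 9.52% of all tested genes were called higher. With UTP in WT, 1.08% of all tested genes were called lower. In P2Y2 KO, 7.56% of all tested genes were under 0.05 before adjustment in edgeR, and DESeq2 called 0.616%. The count of 13 became 0 without either WT + UTP pool, 3 without P2Y2 KO pool 1, 7 without any other P2Y2 KO pool, 10 without WT pool 1 and 19 without WT pool 2. The count of 5 became 15 without WT pool 1 and 3 without P2Y2 KO pool 1, and the count of 18 became 8 and 5 without WT + UTP pool 1 and pool 2. None of the 20 genes was at 0 in any library. Itgax, an integrin of dendritic cells and macrophages from another marker list, rose with UTP in WT, from 37.7 ± 3.78 to 58.1 ± 4.27 CPM (SD, n = 2, log2 change 0.63, adjusted p = 0.0283 in edgeR). The part of the number of macrophages in the changes of the receptor genes was not tested.

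Relative to that summed level, the receptors differed from each other. Csf1r made up 13.6 and 11.5% of the macrophage sum in WT, 8.71 and 8.22% in WT + UTP, 10.7 and 12% in P2Y2 KO, and 8.82 and 9.23% in P2Y2 KO + UTP. All UTP pools were lower than all untreated pools. The separation depended on the list, since without Lyz2, its most abundant gene, the shares were 14.9 to 16.1% with UTP and 16.0 to 20.1% without, a choice made after the data were seen. Relative to the 11 stromal genes, likewise chosen after the data were seen, Csf1r ranged from 0.558 to 1.34% with UTP and from 1.32 to 2.34% without, so that the ranges overlapped, while within each genotype both UTP pools were lower. Csf2ra stood at 0.593 to 0.709% without UTP and at 0.79 to 0.931% with UTP. Csf2rb stood at 0.828 to 0.933% without UTP and at 1.08 to 1.4% with UTP. Both chains of the GM-CSF receptor thus took a higher share of the macrophage sum in all UTP pools, with or without Lyz2 in the list. That sum was itself lower with UTP, and within each genotype Csf1 and Il34 also took a higher share of it in both UTP pools. Relative to the stromal genes the ranges overlapped, at 0.0595 to 0.115% with UTP and 0.0736 to 0.127% without for Csf2ra, and at 0.0885 to 0.157% and 0.103 to 0.156% for Csf2rb. As a share of the macrophage sum, Csf2rb2 overlapped between UTP and untreated pools, at 0.72 to 1.03% and 0.557 to 0.791%. Within each genotype both UTP pools were higher for Csf2rb2. Csf3r overlapped too, at 0.0364 to 0.0553% of that sum with UTP and 0.0547 to 0.0711% without.

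**Figure D4:**
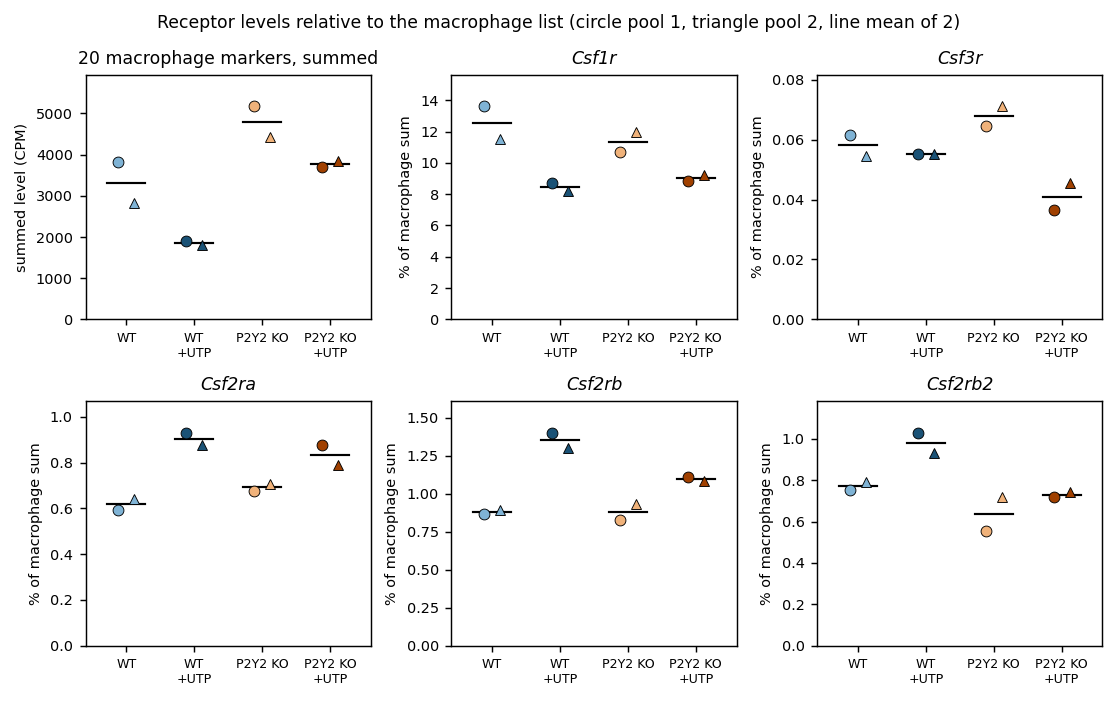
Summed level (CPM) of 20 macrophage genes in each library, and each receptor gene as a percentage of that sum (circles pool 1, triangles pool 2, lines the mean of 2; each axis starts at 0). Csf1r lies at 8.22 to 9.23% in the UTP pools and at 10.7 to 13.6% in the untreated pools, while Csf2ra and Csf2rb lie higher with UTP.

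Genes that act downstream of CSF1R were examined as a list of 26, all of which were tested. With UTP in WT, 9 were called lower and none higher (median log2 change -0.21, against 0.01 over all tested genes), where 1.08% of all tested genes were called lower. The lowest were Vav1, a guanine nucleotide exchange factor of blood cells (-1.68, adjusted p = 0.0267), Inpp5d, the lipid phosphatase SHIP1 (-1.67, 0.0267), Pik3cg, a catalytic subunit of PI3K (-1.63, 0.0288), and Pik3ap1, an adaptor of PI3K (-1.41, 0.0267). Dok2, Plcg2, Lyn and Tyrobp were also called lower, and the genes named here are expressed mainly in blood cells. Other genes of the list with such expression were not called in WT, among them Ptpn6 (-0.88, adjusted p = 0.0609), Syk (-0.58, 0.0849) and Pik3cd (-0.47, 0.0765). Fgr, a kinase of myeloid cells, went the other way, at 0.64 in WT (0.241) and 1.01 in P2Y2 KO (0.305), and was called higher in the average of both genotypes (0.83, adjusted p = 0.0412). Of the parts of the pathway that most cell types share, Grb2, Sos1, Shc1, Akt1 and Mapk3 were not called. In P2Y2 KO none of the 26 was called by edgeR (median -0.11), where 11 were under 0.05 before adjustment and DESeq2 called 5, with Vav1 at -0.75 and Inpp5d at -0.81. Over all tested genes there, 7.56% were under 0.05 before adjustment in edgeR, and DESeq2 called 0.616%. The 9 became 0 without either WT + UTP pool or without P2Y2 KO pool 1, 4 or 5 without another P2Y2 KO pool, and 17 without WT pool 2. Against WT with UTP, P2Y2 KO had 13 higher and 1 lower (Gab2, -0.30), where 9.52% of all tested genes were called higher and 7.9% lower. That total of 14 was 7 and 4 without WT + UTP pool 1 and pool 2.

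**Figure D5:**
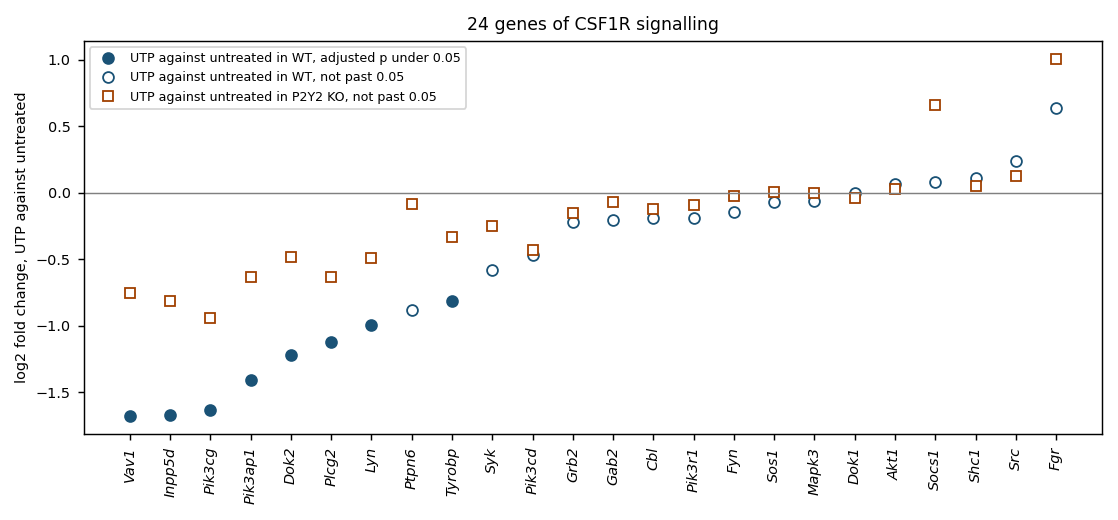
Log2 fold change with UTP of 24 of the 26 genes of CSF1R signalling in WT (circles) and P2Y2 KO (squares), ordered by the value in WT; filled points have an adjusted p under 0.05 in edgeR. In WT 8 genes are filled, from Vav1 at -1.68 to Tyrobp at -0.81, and in P2Y2 KO none is.

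Of 19 genes of the JAK-STAT response to GM-CSF and G-CSF, none was called with UTP in either genotype by edgeR (median log2 change 0.04 in both). Over all tested genes, edgeR called 1.22% in WT and 0.0342% in P2Y2 KO. Before adjustment 5 genes in WT and 3 in P2Y2 KO had p under 0.05 in edgeR, as did 17.7% and 7.56% of all tested genes. DESeq2 called 1 and 0, where it called 3.18% and 0.616% of all tested genes. In P2Y2 KO against WT with UTP 3 were higher (Bcl2a1a, Bcl2a1b and Tyk2) and 2 lower (Socs2 and Jak2), where 17.4% of all tested genes were called. Without UTP 4 of the 19 were higher and 3 lower, where 20.7% of all tested genes were called. Cish, a target of STAT5, had 12.1 ± 1.13 CPM in WT against 13.8 ± 0.105 CPM with UTP (SD, n = 2). Spi1, which encodes the myeloid transcription factor PU.1, had 40.7 ± 13 CPM in WT against 21.9 ± 0.531 CPM with UTP and was not called, but was higher in P2Y2 KO with UTP (1.23, adjusted p = 0.00776).

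Related cytokines and receptors were 14 genes, of which 10 were tested. With UTP in WT 1 was called, where 1.22% of all tested genes were called and 1.08% were called lower. This was Trem2, a myeloid receptor that signals through Tyrobp, at -0.90 (adjusted p = 0.0355). Of other receptors for the ligands studied, Ptprz1, which also binds IL-34, was at 5.72 to 10.9 CPM in the group means and lower in P2Y2 KO without UTP. Sdc1, from the same list, was more abundant, at 82.2 to 134 CPM in the group means. It was lower in P2Y2 KO with UTP (log2 difference -0.58, adjusted p = 0.0195 in edgeR). In that comparison 3 of the 10 tested genes were called higher and 1 lower, where 17.4% of all tested genes were called. A list for the induction of CSF ligands held 15 genes, of which 13 were tested. It includes inducing cytokines, receptors, signalling proteins and an antagonist, so that not all its genes are inducers. Il1rn, the antagonist of the IL-1 receptor, was the only one called with UTP by edgeR, higher in WT (1.34, adjusted p = 0.0022) and in P2Y2 KO (1.64, 0.000568), while DESeq2 called 2 in WT and 1 in P2Y2 KO. Over all tested genes, edgeR called 1.22% in WT and 0.0342% in P2Y2 KO, and DESeq2 called 3.18% and 0.616%. Il1b and Tnf, inducers of Csf2 and Csf3 in stromal cells, were at 0.025 to 0.55 CPM and 2.42 to 9.64 CPM in the group means. In P2Y2 KO against WT with UTP, 5 of the 13 were called higher, among them Tnf (1.99, adjusted p = 0.00736 in edgeR). Il1r1 was called lower there (-0.27, 0.0222), where 17.4% of all tested genes were called. A link between these genes and the levels of Csf2 and Csf3 was not tested.

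The genes whose pattern over the 8 libraries was closest to each member were ranked by the root mean square difference of centred log2(CPM + 0.5), over 12306 genes of at least 5 CPM on average. For Csf1r they were Nckap1l, P2ry6 and Cd48 (0.075 to 0.076). For Csf1 they were Ak5, Hebp2 and Phlda3 (0.032 to 0.039), and for Il34 Cdkn2a, Gm16567 and Ninj1 (0.059 to 0.077). Csf2ra was closest to Lgals3, Mfsd12 and Unc93b1 (0.048 to 0.08), Csf2rb to H2-M3, Slc8b1 and Prelp (0.059 to 0.069), Csf2rb2 to Fuca2, Eln and Nhlrc3 (0.07 to 0.08), and Csf3r to Zranb3, Fli1 and Rhoh (0.112 to 0.127). Within the set, Csf2rb ranked 10 among the genes closest to Csf2ra, at a difference of 0.099, and Csf2ra ranked 29 for Csf2rb. Csf1r ranked 7143 for Csf2ra and 10924 for Csf2rb. Counted from Csf1r, whose levels spread more widely, Csf2rb2 ranked 335, Csf2ra 415 and Csf2rb 487, so that the rank depends on the gene it is counted from.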

How the data were processed

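RNA-sequencing of mouse cADSC was analysed, with 2 libraries in each of 4 groups. Per the study's methods, paired-end reads were mapped with STAR (GRCm38.p4) and assigned to Ensembl 87 genes with HTSeq. The submitters' processing notes also name Trimmomatic. Versions and the strand setting of this counting are not given in the sources used here, and the library kit was stranded. The deposited values are estimated counts, multiplied by the authors with 1 factor per library (0.90842 to 1.07527, estimated here) and rounded up. Each genotype has its own table, and the tables were joined because every library is scaled to the same total. A deposited ratio of UTP to untreated means was not used.

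Testing covered 17529 genes above 0.5 CPM in at least 2 libraries. TMM and the quasi-likelihood test of edgeR 4.0.16 in R 4.3.3 were used, with all 8 libraries in 1 model (4 residual degrees of freedom), Benjamini-Hochberg adjustment and a threshold of 0.05. They were also run on simulated counts with a single dispersion for all genes and no outlying library. That run does not show how they perform on pools as uneven as these. P-values measure the spread between pools, and an exact permutation test of 2 pools against 2 cannot go below 0.333. Positions come from GENCODE M21 on GRCm38. Alternatives were DESeq2 1.42.0 with its size factors, scaling by library size, other minimums (none, or 2 CPM), the authors' scaling undone, a replicate block, fits of only the groups compared, and fits without each library. The genes named are the 9 members, called genes of each list by fold change (at most 4 a list and comparison), genes whose level stands beside a member, and the 3 nearest to each member in pattern. Other list genes were named after their values were seen. Where a symbol had 2 identifiers, the one with more counts was used. The members and the 14 lists of 180 genes were chosen with earlier results of these data known. Some genes of the lists are not reported here.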

Additional observations from a re-analysis of the deposited data

How the results depend on the processing

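Of 616 log2 changes of single members under an alternative, 552 kept their sign and their side of the threshold, 33 lost the call, 18 gained it and 13 changed sign, none of them of a called change. All 13 came from leaving out a library. Over the fits without a library, the changes with UTP in WT were -0.01 to 0.14 for Csf1 and -0.01 to 0.2 for Il34, and in P2Y2 KO -0.03 to 0.3 for Il34. The differences of the UTP effects were -0.04 to 0.2 for Csf1, -0.12 to 0.22 for Il34, -0.02 to 0.38 for Csf2rb and -0.48 to 0.15 for Csf3r. P2Y2 KO against WT was -0.24 to 0.005 for Csf1 without UTP and -0.1 to 0.03 with UTP.

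The number of genes called with UTP in WT was 214, and 558 with DESeq2, 1083 with no minimum, 2 with only the groups compared and 1 to 2403 with a library left out. In P2Y2 KO it was 6, and 108, 319, 3 and 2 to 156 in the same order. Averaged it was 447, and 688 with DESeq2, 1213 with no minimum and 11 to 2206 with a library left out. For the difference of the UTP effects it was 0, and 6, 28 and 0 to 275. For P2Y2 KO against WT without UTP it was 3628, and 2156 with DESeq2, 1271 with only the groups compared and 720 to 3984 with a library left out, and with UTP it was 3053 and 640 to 4095 with a library left out. The number of members called with UTP in WT was 1, and 2 with no minimum, 0 with only the groups compared and 0 to 5 with a library left out. In P2Y2 KO it was 0, and 2 with no minimum and 0 to 1. Averaged it was 2, and 1 with DESeq2, 1 with the replicate block and 0 to 5. For the difference it was 0 and 0 to 1. For P2Y2 KO against WT it was 3 without UTP, and 1 with only the groups compared and 0 to 6, and 5 with UTP and 1 to 5. The cause was not tested, apart from the fewer libraries that a left-out library or a fit of 2 groups leaves.

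Same-numbered pools deviated together in P2Y2 KO with and without UTP (r = 0.42) but not in the other pairs of groups (-0.139 to 0.113), so that a block over all groups rests on a shared number only. In P2Y2 KO, pools 1 also shared the near absence of Xist. A replicate block within P2Y2 KO, added after the data were seen, called 9 genes and 0 members with UTP there. With the replicate block 274 genes were called with UTP in WT and 6 in P2Y2 KO, and of the member calls the averaged one of Csf3r was lost (adjusted p = 0.0502). Depth limits Csf2 and Csf3, which stayed under 10 scaled counts, and Csf3r, which had 20 to 67.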
